A study of Mus musculus with 8 samples.

Results

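The 8 genes described here encode nuclear receptors that respond to fats, sterols and vitamin D, together with close relatives. They were taken by their symbols from the deposited table, and all 8 had a row among its 14247 genes. Each passed the filter of a mean of at least 10 normalised counts, which left 13503 genes for the tests. They are the 3 peroxisome proliferator-activated receptors Ppara, Pparg and Ppard, the liver X receptors Nr1h2 (LXR beta) and Nr1h3 (LXR alpha), the vitamin D receptor Vdr, the estrogen-related receptor Esrra, and Rxra, the retinoid X receptor.

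A nuclear receptor is a transcription factor that binds DNA and, in most cases, a small lipid-like ligand. PPARs respond to fatty acids and their derivatives and act on genes of fat oxidation and storage, LXRs respond to oxysterols and act on cholesterol export and lipid synthesis, and VDR responds to the active form of vitamin D and acts on calcium uptake. PPARs, LXRs and VDR bind DNA as heterodimers with a retinoid X receptor, so that Rxra is a shared partner, whereas ERR alpha is classed as an orphan receptor and acts with the coactivator PGC-1 on mitochondrial genes. In the colon these receptors are known for roles in colonocyte differentiation, mineral absorption and barrier function.

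RNA was sequenced from crypts of the large intestine of WT mice killed at zeitgeber time (ZT) 0, 6, 12 or 18 h, where ZT0 is lights on and ZT12 is lights off. No treatment was given, and by the methods the mice had a C57BL/6 background and were a few months old. Each of the 4 time points had 2 libraries, called replicate 1 and replicate 2. Crypts were loosened with EDTA and scraped off, so that the preparation holds all crypt cells and may hold cells from beneath them. By its legend the time course was drawn from more mice per time point than the 2 libraries analysed here. The labels tie no library to a mouse, and p-values then measure the spread between these libraries, which may be technical.

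Whole reads could be recovered from the deposited values, and library totals ranged from 14722342 to 25159440 reads. All 8 epithelial markers were found in each library, with a summed level between 229631 and 306607 normalised counts. ZT12 replicate 1 stood apart in smooth muscle markers, whose 5 listed genes summed to 3672 normalised counts there and to between 6.95 and 229 in the others, and in fibroblast markers, which summed to 2329 there and to between 3.22 and 648 elsewhere. The mitochondrial genome took 6.68% to 22.2% of the normalised counts and was lowest in the ZT12 libraries. In ZT12 replicate 1, long transcripts were also higher: the median gene in the fifth with the longest exons stood 0.27 above its own mean over libraries on the log2 scale, and that in the fifth with the shortest exons stood 0.23 below (-0.23). In bulk RNA, fewer cells of a type and less RNA per cell cannot be told apart.

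The receptors differed widely in level. Divided by exon length, which allows genes to be compared, Vdr was the most abundant, with 1584 ± 199 normalised counts per kb (SD over 8 libraries). It was followed by Esrra with 872 ± 83.1, Nr1h2 with 719 ± 138, Ppard with 517 ± 63.5, Pparg with 430 ± 125 and Rxra with 412 ± 53.3. Nr1h3 had 134 ± 24.3 and Ppara had 61.5 ± 58.4 normalised counts per kb. Vdr stood above Esrra, and Rxra above Nr1h3, in all 8 libraries without overlap of their ranges. The ranges of all other neighbours in this order overlapped. Esrra exceeded Nr1h2 in 7 libraries and Nr1h2 exceeded Ppard in 7, whereas Pparg exceeded Rxra in 5. Among all genes of the table, the mean per kb of Vdr was at percentile 96.5, that of Rxra at 85.5 and that of Ppara at 46.1. Among other nuclear receptors of the same listing, Hnf4a, a regulator of enterocyte identity, had a higher mean than Vdr, at 3822 normalised counts per kb, and Rxrb, another retinoid X receptor, had 264. Both were singled out after their values were seen.

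**Figure D1:**
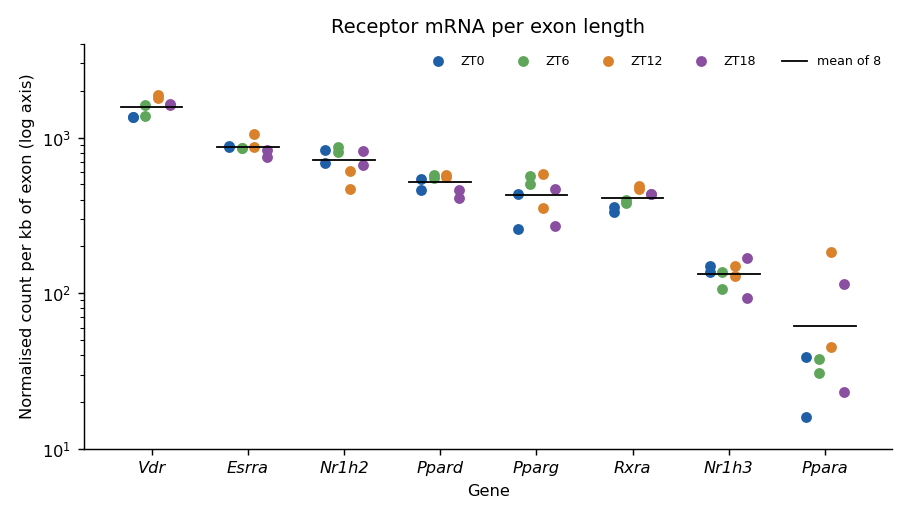
Normalised counts per kb of exon (vertical log axis) of the 8 receptors, in order of their mean. Points are single libraries coloured by time point and the bar is the mean of 8 libraries, which runs from 1584 for Vdr to 61.5 for Ppara. Only Ppara spreads over a range of more than 10-fold.

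To ask whether the receptors followed the time of day, each was fitted with a 24 h cosine in limma across all 13503 genes. No receptor passed an adjusted p of 0.05 in this fit, while 16 genes did, or 0.118% of those tested. At an unadjusted p under 0.05, 1 receptor (Rxra) was found against 9.15% of all genes. The median amplitude of the 8 receptors, the distance from mean to peak on the log2 scale, was 0.23, and that of all genes was also 0.23. No receptor was called in the F-test over the 4 time points, in which 0.0889% of all genes were called and 7.03% had an unadjusted p under 0.05, Nr1h2 among them. No receptor was called for ZT12 against ZT0 (0.0667% of genes called) or for ZT18 against ZT6 (0.0444%). In the remaining contrasts no receptor was called either, against 0.0444% of genes for ZT6 against ZT0, 0.0296% for ZT18 against ZT12 and 0.0% for ZT18 against ZT0 and for ZT12 against ZT6. edgeR and DESeq2 on the recovered reads also called 0 receptors in the cosine fit, while they called 12 and 185 of all genes. At an unadjusted p under 0.05 they had 2 and 3 receptors, and the share of all genes at that level was not counted. The smallest adjusted p of any receptor, over these fits and all alternatives tried, was 0.131.

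**Figure D2:**
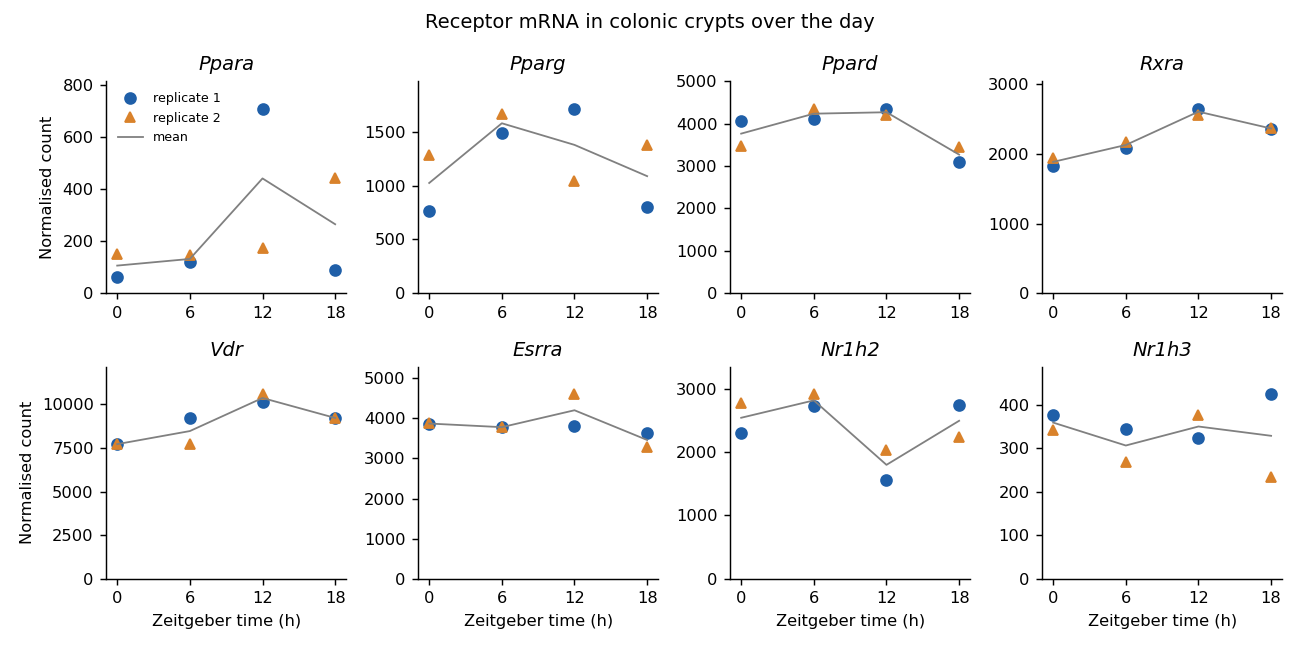
Normalised counts (vertical axes, each from 0) of the 8 receptors against zeitgeber time in hours. Points are single libraries, with shapes for replicate 1 and replicate 2, and lines join the means of 2 libraries. Rxra and Vdr are highest at ZT12 in both libraries, Nr1h2 is lowest there in both, and the 2 libraries of ZT12 and ZT18 lie far apart for Ppara.

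Rxra (chr2:27676440-27762957 on GRCm38, plus strand), the common partner, had the smallest p of the 8 in the cosine fit. Rxra had normalised counts of 1825 and 1949 in the ZT0 pair, 2081 and 2179 in the ZT6 pair, 2652 and 2566 in the ZT12 pair, and 2357 and 2377 in the ZT18 pair, where a pair is the 2 libraries of a time point with replicate 1 given first. Both ZT12 libraries were above the other 6, as in 6.45% of all genes. The cosine peaked 13.2 h after lights on, with an amplitude of 0.25 (limma adjusted p = 0.484). The level at ZT12 was 1.38 times that at ZT0, a log2 difference of 0.47 ± 0.15 (SE, 95% interval 0.13 to 0.80, limma adjusted p = 0.388). Between ZT18 and ZT6 the log2 difference was 0.15, with an interval from -0.18 to 0.49 (limma adjusted p = 0.903). The libraries of a time point differed by no more than 1.07-fold, which is less than the 1.38-fold between the highest and the lowest time point.

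Vdr (chr15:97854425-97910630, minus strand) had a similar course. In normalised counts, Vdr had 7722 and 7726 in the ZT0 pair, 9218 and 7730 in the ZT6 pair, 10161 and 10580 in the ZT12 pair, and 9206 and 9247 in the ZT18 pair. Both ZT12 libraries were above all others, while ZT6 replicate 2 lay at the level of ZT0. The fitted peak was at 13.1 h and the amplitude 0.22 (limma adjusted p = 0.567). ZT12 exceeded ZT0 1.34-fold, a log2 difference of 0.42 ± 0.18 (SE, interval 0.03 to 0.82, limma adjusted p = 0.481). Over the 8 libraries the log2 levels of Rxra and Vdr had a Pearson r of 0.86, the highest of the 28 pairs of receptors, given as a description of libraries that share depth and tissue composition. Rxra and Vdr were the 2 receptors whose ZT12 libraries were both above the other 6, a pattern found in 6.45% of all genes. In a JTK-type test of ranks both reached p = 0.0190, the smallest that 8 libraries allow after correction for 4 orders (exact two-sided enumeration). With 278 genes at that level, or 2.06% of those tested, their adjusted p was 0.877 and 0.0% of genes were called.

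The sequences before the start sites of Rxra and Vdr are shown because these genes had the most similar course of the pairs. That of Nr1h2 is shown because it was lowest at ZT12, where Rxra and Vdr were highest. They come from RefSeq (GRCm38.p6), 5′ to 3′, and stop where an annotated exon begins. Capitals mark matches to the GC box GGGCGG, to the clock-related E-box CACGTG and D-box (TTATGTAA or TTACGTAA), and to AGGTCA, the hexamer bound by nuclear receptors, each on both strands.
Rxra (chr2:27676951-27677200, plus strand): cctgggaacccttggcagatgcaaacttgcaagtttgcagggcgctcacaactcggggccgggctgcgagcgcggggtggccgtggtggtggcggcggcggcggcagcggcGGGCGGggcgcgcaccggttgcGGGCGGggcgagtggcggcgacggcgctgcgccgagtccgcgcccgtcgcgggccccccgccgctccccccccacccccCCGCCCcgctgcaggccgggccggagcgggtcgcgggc
Vdr (chr15:97908311-97908546, minus strand): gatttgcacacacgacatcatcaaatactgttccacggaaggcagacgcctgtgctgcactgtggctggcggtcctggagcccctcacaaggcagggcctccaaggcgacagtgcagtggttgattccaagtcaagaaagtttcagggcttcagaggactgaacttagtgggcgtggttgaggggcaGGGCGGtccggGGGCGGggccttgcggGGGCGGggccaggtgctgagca
Nr1h2 (chr7:44553966-44554215, minus strand): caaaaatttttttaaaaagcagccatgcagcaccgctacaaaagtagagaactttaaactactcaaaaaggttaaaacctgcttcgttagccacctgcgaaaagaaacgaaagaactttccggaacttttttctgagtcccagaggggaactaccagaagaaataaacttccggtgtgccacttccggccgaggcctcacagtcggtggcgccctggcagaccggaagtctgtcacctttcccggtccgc
The Rxra and Vdr windows shown each held 3 GC boxes and the Nr1h2 window held 0. Ppard, whose course differed from that of Rxra and Vdr, also had 3. Another window of Rxra, from a downstream start, held 0. GC boxes were found in 7 of the 12 windows of the 8 receptors and in 32.7% of 32851 windows of 250 bases in the RefSeq table. The windows also differed in GC content, with 81.2% for that of Rxra shown, 61.2% for Vdr and 48.4% for Nr1h2. The median over all windows was 52.4%, and the part of GC content in the GC box counts was not tested. Neither an E-box nor a D-box was found in any of the 12 windows of the 8 receptors, against 6.02% and 0.931% of all windows. AGGTCA was found in 3 of the 12, from Pparg and from a downstream start of Rxra, against 14.0% of all windows. The Rxra and Vdr sequences shown both lie between annotated exons, inside the spans of their genes, whereas that of Nr1h2 lies outside its gene.

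Nr1h2 (chr7:44549616-44553951, minus strand), the LXR with the higher level, was lowest at ZT12, where Rxra and Vdr were highest. Libraries held Nr1h2 at normalised counts of 2300 and 2781 in the ZT0 pair, 2719 and 2910 in the ZT6 pair, 1558 and 2037 in the ZT12 pair, and 2745 and 2241 in the ZT18 pair. Both ZT12 libraries were below the other 6, as in 5.7% of all genes. The log2 difference of ZT12 from ZT0 was -0.51 ± 0.20 (SE, interval -0.95 to -0.06, limma adjusted p = 0.471), and the F-test over time points gave an adjusted p of 0.698 (limma). Nr1h2 has a GC content of 60.6%, at percentile 97.0 of the genes tested, and the median gene in the fifth with the highest GC content stood 0.13 below its own mean (-0.13) in ZT12 replicate 1 and 0.13 above it in ZT0 replicate 2. With a correction of each library for exon length and GC content, the difference was -0.33 (limma adjusted p = 0.542), and without both of those libraries it was -0.18. The part of GC content in the Nr1h2 difference was not tested.

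Nr1h3 (chr2:91184061-91202834, minus strand), the LXR known from liver and macrophages, showed no order by time. Nr1h3 counts, normalised, were 375 and 342 in the ZT0 pair, 344 and 269 in the ZT6 pair, 324 and 376 in the ZT12 pair, and 424 and 233 in the ZT18 pair. The highest and the lowest value were both from ZT18. Its amplitude was 0.031 (limma adjusted p = 0.991), the lowest of the 8, and the interval of the ZT12 minus ZT0 difference ran from -0.72 to 0.64 on the log2 scale. Exons of an unlisted transcript, Gm13783, share 34 bases with it.

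Among the 12 tested LXR targets, 0 were called in the cosine fit, against 0.118% of all genes. Of the 12, 8 had a higher mean log2 value at ZT12 than at ZT0, against 6940 of all 13503 genes. The median log2 difference of the list was 0.15, against 0.015 over all genes. By amplitude the first were Apoe, a lipoprotein component made by macrophages, and Abcg1, a cholesterol exporter. Apoe had 792 normalised counts in ZT0 replicate 2 and between 145 and 351 in the others. ZT0 replicate 2 also had the highest summed B and plasma cell markers (1422 normalised counts, against 31.8 to 345 elsewhere) and myeloid markers (1885, against 629 to 1114), and their part in the Apoe value was not tested. Abcg1 had 99.3 and 102 in the ZT0 pair, 56.7 and 70.7 in the ZT6 pair, 99.2 and 118 in the ZT12 pair, and 114 and 115 in the ZT18 pair, so that both ZT6 values were the lowest (amplitude 0.42, limma adjusted p = 0.583). Across libraries, Nr1h2 had a median r of -0.50 with the 12 targets, against a median of -0.040 with all genes, and Nr1h3 had 0.013. These values describe libraries that share depth and tissue composition, and the part of GC content in them was not tested.

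Of the PPARs, Ppard (chr17:28232700-28301474, plus strand) was the most abundant and the steadiest. This widely expressed member is known for fatty acid oxidation in muscle and gut. Ppard stood at normalised counts of 4055 and 3469 in the ZT0 pair, 4115 and 4349 in the ZT6 pair, 4340 and 4192 in the ZT12 pair, and 3095 and 3439 in the ZT18 pair. The ZT18 values did not overlap those of ZT6 and were lower, as in 18.8% of all genes. The log2 difference of ZT18 from ZT6 was -0.37 ± 0.16 (SE, interval -0.74 to -0.0075, limma adjusted p = 0.742), and the fitted peak was at 7.76 h with an amplitude of 0.21 (limma adjusted p = 0.577). ZT12 and ZT0 did not overlap but differed by a log2 value of 0.19, with an interval from -0.18 to 0.55, and by 0.073 without ZT0 replicate 2 and 0.30 without ZT0 replicate 1.

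Pparg (chr6:115360951-115490399, plus strand), known as the adipocyte regulator and highly expressed in colonocytes, varied more within time points than Ppard did. For Pparg the normalised counts were 765 and 1286 in the ZT0 pair, 1493 and 1670 in the ZT6 pair, 1717 and 1043 in the ZT12 pair, and 801 and 1377 in the ZT18 pair. Replicates differed 1.68-fold at ZT0, 1.65-fold at ZT12 and 1.72-fold at ZT18, which is more than the 1.54-fold between the highest and the lowest time point mean. The log2 difference of ZT12 from ZT0 was 0.43 (interval -0.34 to 1.20, limma adjusted p = 0.691) and that of ZT18 from ZT6 was -0.59 (interval -1.36 to 0.18, limma adjusted p = 0.834). The first was 0.057 without ZT0 replicate 1 and 0.81 without ZT0 replicate 2, and the second was -0.20 when ZT18 replicate 1 was left out and -0.98 when replicate 2 was. The only listed adipocyte marker with a row was Cidec, at between 109 and 583 normalised counts.

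Ppara (chr15:85734983-85802819, plus strand), the fasting-responsive receptor of liver, was the lowest and the most variable. Ppara was measured at normalised counts of 61.6 and 150 in the ZT0 pair, 118 and 145 in the ZT6 pair, 709 and 173 in the ZT12 pair, and 88.9 and 441 in the ZT18 pair. The high values came from 1 library each of ZT12 and ZT18, and the highest was 11.5 times the lowest, which rested on 62 reads. Replicates differed 4.10-fold at ZT12 and 4.96-fold at ZT18, while the time point means spanned 4.16-fold. ZT12 minus ZT0 was 1.85 ± 0.82 on the log2 scale (SE, interval 0.0036 to 3.70, limma adjusted p = 0.501), the largest difference of the 8 receptors. Without ZT12 replicate 1, the library high in smooth muscle and fibroblast markers, the difference was 0.84, and without ZT12 replicate 2 it was 2.87. In ZT18 replicate 2, where Ppara was second highest, smooth muscle markers summed to 12.9 normalised counts and fibroblast markers to 3.22. The part of cell composition in the Ppara values was not tested. ZT18 minus ZT6 was 0.60, with an interval from -1.25 to 2.45, and it turned to -0.55 without ZT18 replicate 2 and was 1.74 without ZT18 replicate 1.

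Fitted differences of all receptors are set side by side in the plot of contrasts. For ZT12 against ZT0, 4 receptors had an unadjusted p under 0.05 (Ppara, Rxra, Vdr and Nr1h2), against 9.96% of all genes. The libraries of Ppara, Ppard, Rxra and Vdr did not overlap and were higher at ZT12, as in 20.7% of all genes, and those of Nr1h2 were lower, as in 20.3%. For ZT18 against ZT6, Ppard alone had an unadjusted p under 0.05, against 6.71% of genes. Rxra was higher at ZT18 without overlap (19.2% of genes), and Pparg, Ppard and Esrra were lower (18.8%). With 2 libraries a group, non-overlap is thus common in this table.

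**Figure D3:**
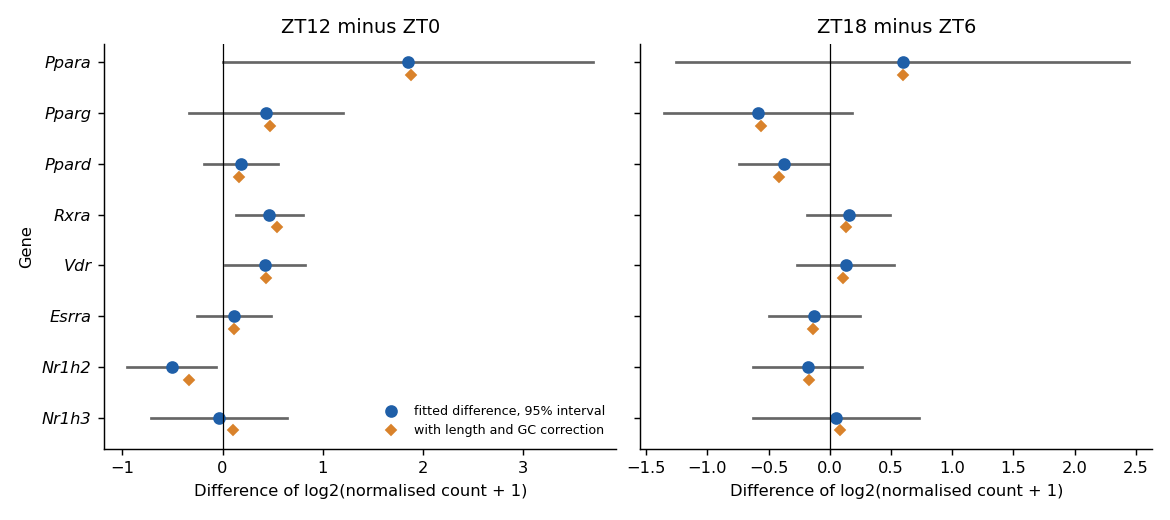
Differences of log2(normalised count + 1) between time points (horizontal axes) for the 8 receptors. Circles are limma estimates with 95% intervals and diamonds are estimates after a correction for exon length and GC content, which moves Nr1h2 from -0.51 to -0.33 and Rxra from 0.47 to 0.54 for ZT12 minus ZT0.

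For several listed PPAR targets the libraries of a time point lay far apart, although the median log2 gap between replicates over the list was 0.31, against 0.30 over all genes. Of 27 genes, 22 were tested and 0 were called in the cosine fit, against 0.118% of all genes. At an unadjusted p under 0.05 there were 2, or 9.09%, close to the 9.15% of all genes. Those were Slc25a20, the carnitine carrier of the mitochondrial membrane, and Acadl, an acyl-CoA dehydrogenase. Slc25a20 had 3195 and 3473 normalised counts in the ZT0 pair, 4547 and 4185 in the ZT6 pair, 3928 and 4289 in the ZT12 pair, and 3223 and 2920 in the ZT18 pair (amplitude 0.30, peak at 8.04 h, limma adjusted p = 0.431). Its values at ZT6 and ZT12 were all above those at ZT0 and ZT18, a split whose share over all genes was not counted. It was called by DESeq2 on the recovered reads, with an adjusted p of 0.0487. Acadl had 1798 and 1905 normalised counts in the ZT0 pair, 2688 and 2527 in the ZT6 pair, 2302 and 2599 in the ZT12 pair, and 1806 and 2160 in the ZT18 pair, with an adjusted p of 0.483 in the cosine fit (limma). Both were singled out after their values were seen. Over the list, 17 of 22 genes had a higher mean log2 value at ZT12 than at ZT0, and the median difference was 0.31, against 0.015 over all genes. For ZT18 against ZT6, 8 were higher and 14 lower, with a median of -0.14, against -0.012 over all genes.

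Vnn1, a pantetheinase and a well-known PPAR alpha target, had the largest amplitude of the list, 1.78 (limma adjusted p = 0.719). Vnn1 had normalised counts of 2.98 and 87.7 in the ZT0 pair, 89.9 and 145 in the ZT6 pair, 136 and 47.3 in the ZT12 pair, and 0 and 253 in the ZT18 pair, where 0 allows up to 2.56 normalised counts, for counting error only. The values of ZT0 and ZT18 differed far more between replicates than between the time points. Acot1, a cytosolic acyl-CoA thioesterase, came next with an amplitude of 0.54 and was highest in ZT0 replicate 2, at 131 normalised counts. ZT0 replicate 1 and ZT18 replicate 1, which were lowest for Vnn1, were also lowest for Pparg and Ppara. Of the 4 listed colonocyte markers, Car1, a carbonic anhydrase, was low in the same libraries, with 25770 and 29320 normalised counts there and between 101729 and 156024 in the other 6. The other markers were not low there. Car4 had 37957 and 30024 in those libraries and between 18143 and 32826 in the others. Aqp8, a water channel, had 33885 and 30461 against 12205 to 26175. Slc26a3, a chloride exchanger, had 35214 and 43260 against 18040 to 42882. The part of cell composition in these values was not tested.

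Over the 8 libraries, Pparg had a Pearson r above 0 with 20 of the 22 targets and above 0.7 with 7. The median was 0.58, against 0.020 with all genes, of which 6.94% were above 0.7. Ppara had a median r of 0.49 with the targets, and Ppard had 0.12. These correlations rest on 8 libraries that share depth and composition, and they are given as a description.

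**Figure D4:**
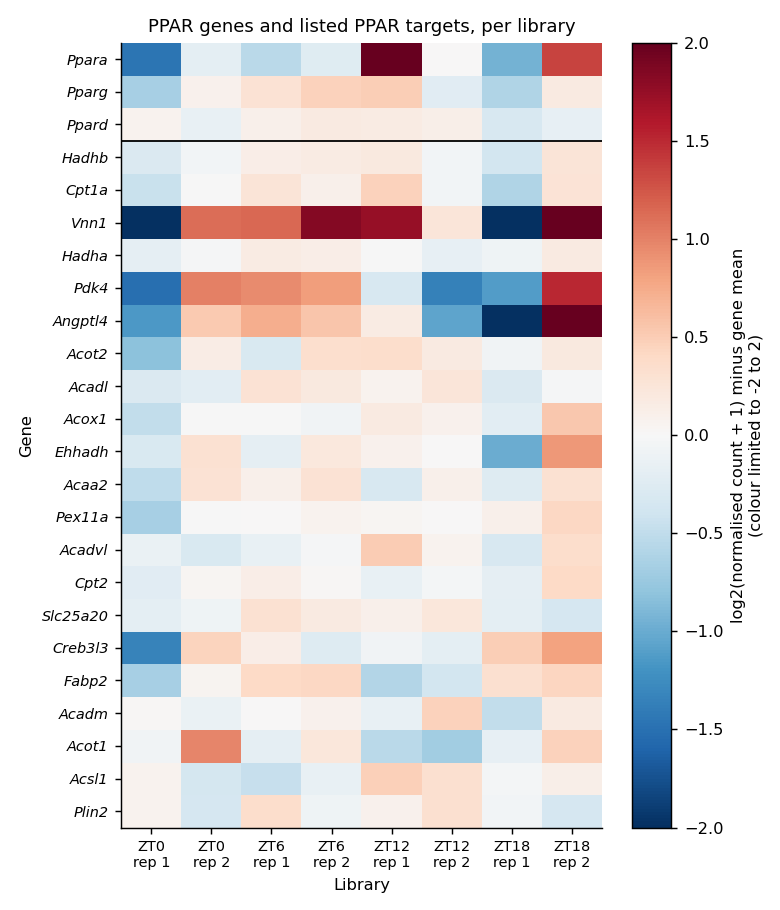
Level of the 3 PPAR genes (above the line) and of the tested PPAR targets except 1 (below, ordered by their correlation with Pparg) in each library, as log2(normalised count + 1) minus the mean of the gene, with colours limited to -2 and 2. ZT0 replicate 1 and ZT18 replicate 1 are low for Ppara, Pparg and Vnn1, while the other library of each time point is higher.

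Esrra (chr19:6910977-6921813, minus strand) had the second-lowest amplitude. Esrra had normalised counts of 3846 and 3892 in the ZT0 pair, 3774 and 3784 in the ZT6 pair, 3803 and 4597 in the ZT12 pair, and 3629 and 3290 in the ZT18 pair. Apart from ZT12 replicate 2, all values lay between 3290 and 3892. The amplitude was 0.09 (limma adjusted p = 0.862), the log2 difference of ZT12 from ZT0 was 0.11 (interval -0.26 to 0.48) and that of ZT18 from ZT6 was -0.13 (interval -0.50 to 0.24). Its exons share 73 bases with Trmt112 on the opposite strand, and reads there cannot be told apart since strand use is not given in the sources used here. Of the 9 listed ERR alpha targets, 0 were called in the cosine fit, against 0.118% of all genes. The median amplitude of the list was 0.12, against 0.23 over all genes. Perm1, a regulator of muscle mitochondria, had the largest amplitude at 0.68 but between 22.5 and 97.9 normalised counts. Pdk4, a brake on glucose oxidation that is shared with the PPAR list, had 80.5 and 469 in the ZT0 pair, 448 and 416 in the ZT6 pair, 185 and 89.9 in the ZT12 pair, and 106 and 660 in the ZT18 pair, again with wide gaps between replicates.

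Of 11 listed VDR targets 7 were tested and 0 were called in the cosine fit, against 0.118% of all genes. At an unadjusted p under 0.05 in this fit (limma) there were 2, or 28.6%, against 9.15% of all genes. The median amplitude of the list was 0.43, against 0.23 over all genes. Trpv6, the apical calcium channel of the gut, had 449 and 333 normalised counts in the ZT0 pair, 299 and 153 in the ZT6 pair, 181 and 110 in the ZT12 pair, and 277 and 182 in the ZT18 pair. It was highest at ZT0 and ran opposite to Vdr, with a log2 difference of ZT12 from ZT0 of -1.45 ± 0.40 (SE, limma adjusted p = 0.355). Slc37a2, a sugar phosphate exchanger, had the largest amplitude at 0.79 (limma adjusted p = 0.510). Its values were 11692 and 4594 in the ZT0 pair, 7679 and 7800 in the ZT6 pair, 5066 and 7149 in the ZT12 pair, and 3783 and 1859 in the ZT18 pair, so that the lowest values were those of ZT18. Cyp24a1, the enzyme that breaks down active vitamin D and a classical VDR target, had no row. Over libraries Vdr had a median r of 0.066 with the 7 targets, against 0.010 with all genes, given as a description.

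Among the 15 coregulators, which nuclear receptors recruit to act on transcription, 0 were called in the cosine fit, against 0.118% of all genes. At an unadjusted p under 0.05 in this fit (limma) there were 2 (13.3%), against 9.15% of all genes. Ep300, a histone acetyltransferase, had 1136 and 922 normalised counts in the ZT0 pair, 965 and 989 in the ZT6 pair, 2110 and 1400 in the ZT12 pair, and 1215 and 1308 in the ZT18 pair (amplitude 0.42, limma adjusted p = 0.483). Ncoa1, a coactivator of the p160 family, had 682 and 630 in the ZT0 pair, 588 and 692 in the ZT6 pair, 1121 and 938 in the ZT12 pair, and 654 and 738 in the ZT18 pair (amplitude 0.33, limma adjusted p = 0.538). Both were highest at ZT12 in both libraries, as in 6.45% of all genes. Of the list, 12 were higher at ZT12 than at ZT0 and 3 lower, with a median log2 difference of 0.20. Over all genes 6940 of 13503 were higher, with a median of 0.015. Coregulators have long transcripts, with a median of 8.75 kb of exon against 4.26 kb over all genes. With the correction for exon length and GC content 10 of 15 were higher, with a median of 0.15. That compares with 6742 of all 13503 genes and a median of -0.00031. The part of exon length in these differences was not tested.

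Of 14 other nuclear receptors listed, 10 were tested and 0 were called in the cosine fit, against 0.118% of all genes. Of the 10, 5 were higher and 5 lower at ZT12 than at ZT0. With the correction for exon length and GC content 8 of 10 were higher, and the median log2 difference of the list was 0.072. With the same correction 6742 of all 13503 genes were higher, with a median of -0.00031. Hnf4g and Esrrg had the largest amplitudes, 0.31 and 0.27 (limma adjusted p = 0.652 and 0.825). Of 23 genes for ligand handling, such as binding proteins and enzymes that make or break down ligands, 12 were tested. In the cosine fit 0 were called, against 0.118% of all genes. Aldh1a1, a retinal dehydrogenase, had 680 and 4413 normalised counts in the ZT0 pair, 3995 and 5136 in the ZT6 pair, 9371 and 3068 in the ZT12 pair, and 1301 and 8449 in the ZT18 pair. It was low in the same libraries as Pparg and Vnn1 (amplitude 0.84, limma adjusted p = 0.696). Cyp2r1, a vitamin D 25-hydroxylase, had between 6.53 and 42.7 normalised counts and an amplitude of 0.75 (limma adjusted p = 0.681).

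For each receptor, the genes with the most similar course over the 8 libraries were taken from 10024 genes with a mean of at least 100. They are named with their Pearson r on the log2 scale, as a description. Rxra was most like Erg28 and Nlk (both 0.96), Vdr like Efcab14 (0.96) and Picalm (0.93), and Nr1h2 like Ppox (0.99) and Ypel3 (0.98). Pparg was most like Ndrg3 (0.99) and Nadsyn1 (0.98), Ppara like Sec31a (0.98) and Far1 (0.97), and Ppard like Ccser1 (0.98) and Zfp317 (0.97). Nr1h3 was most like Chfr and Zfp592 (both 0.92). Esrra was most like Lyplal1 (0.95) and 9530053A07Rik (0.93), and the latter had 5271 normalised counts in ZT12 replicate 2 and between 0 and 12.1 in the other libraries, so that the likeness rests on 1 library. The lowest r between receptors was -0.69, for Ppara and Nr1h2.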

How the data were processed

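RNA-seq reads of 8 libraries of mouse colonic crypts were, per the methods, aligned by the authors with STAR to GRCm38 and analysed with DESeq2; annotation, counting and strand use are not given in the sources used here. The authors deposited 1 table of 14247 genes whose library columns hold a signal, the read count divided by 1 size factor per library (normalised count). Recovered reads were whole (within 0.01 of a read) for 100% of values in each library. Further columns deposited by the authors hold a log2 fold change with its error, a test score and p-values of a comparison of their own, which were not used. No library column lacked a sample (0).

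Log2(normalised count + 1) of genes with a mean of at least 10 was fitted in limma 3.58.1 (lmFit, eBayes with trend, R 4.3.3) over all 8 libraries, with a 24 h cosine, an F-test over time points and 6 contrasts, and p-values were adjusted over all 13503 genes (Benjamini-Hochberg). Fold changes on this scale understate those of low genes. The rank test compared each gene with 4 cosine orders by exact enumeration. Alternatives were edgeR 4.0.16, DESeq2 1.42.0, other scalings, pseudocounts and filters, a replicate block, omitted libraries and, chosen after seeing the data, a linear correction of each library for exon length and GC content (GENCODE M21). Code was tested on simulated data. The receptors and the lists of targets, coregulators and markers were chosen with earlier results of these data known. Genes were named by a rule: in each linked list those called, plus the 2 with the largest amplitude, and for each receptor the 2 genes with the highest r. Genes named outside it are said to be so, or have no row, or are markers. For 1 gene of the PPAR target list, which is included in the counts and medians of that list, no values are reported here.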

Additional observations from a re-analysis of the deposited data

How the results depend on the processing

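The count of receptors called was 0 in the cosine fit, the F-test, and the 6 contrasts under each alternative run: TMM or quantile scaling, scaling outside the mitochondrial genome, pseudocounts of 0.1 and 10, no filter or a mean of at least 50, no trend, edgeR, DESeq2, a replicate block, each library left out, ZT12 replicate 1 and ZT0 replicate 2 left out together, and the length and GC correction, which was added after seeing the data. For the contrasts it was also 0 in fits of only the 4 libraries of 2 time points. The rank test, run under 5 of the scalings and filters and with each library left out, also called 0. The linked genes called in the cosine fit numbered 0 except with DESeq2, which called 1 (Slc25a20) and called 185 genes in all against 16 in limma; the cause was not tested. Over all genes, the cosine fit called 1 gene without the trend and 8 to 18 with single libraries left out. For ZT12 against ZT0, limma called 9 genes, DESeq2 135, edgeR 5, the fit without trend 1, the length and GC correction 15, and 5 to 13 were called with single libraries left out. For ZT18 against ZT6, limma called 6, DESeq2 68, the fit without trend 1, and 0 to 13 were called with single libraries left out. With the replicate block, 12 genes in all were called in the cosine fit and 0 receptors, while 8 genes were called between ZT12 and ZT0 and 9 between ZT18 and ZT6. Receptors at an unadjusted p under 0.05 for ZT12 against ZT0 numbered 2 with the block and 4 without it. The share of all genes was 9.96% without the block and was not counted with it. Deviations of same-numbered libraries had correlations between -0.29 and 0.22, so the numbers were not taken to pair libraries.

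Some directions turned, none of them of a called difference. For ZT12 against ZT0, Esrra ran from -0.025 to 0.25 on the log2 scale with single libraries left out, and Nr1h3 from -0.15 to 0.068; Nr1h3 was 0.11 with the length and GC correction and 0.0015 without both ZT12 replicate 1 and ZT0 replicate 2. For ZT18 against ZT6, Ppara ran from -0.55 to 1.74 and Nr1h3 from -0.38 to 0.48. Without ZT12 replicate 1 the amplitude of Ppara was 0.57 and not 0.97, and that of Nr1h2 was 0.14 and not 0.27; without ZT18 replicate 2 that of Nr1h3 was 0.24 and not 0.031. Depth gave at least 62 reads for each receptor in each library.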
